A study of Mus musculus with 12 samples.

Results

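Lysosome and V-ATPase genes were followed in B16 cells, a mouse melanoma line, after knockdown of Sdc1 and after stimulation with IFNγ. The group held 44 genes, taken by symbol from the 56093 entries of the count table and covering the proton pump, lysosomal membrane proteins, cathepsins, other hydrolases, the transcription factors Tfeb and Tfe3, and Cd68 and Lyz2. All 44 matched an Ensembl identifier, and 43 were among the 14089 genes that passed a filter on low counts and were tested. Ctsk, with 43 counts over the 12 libraries, was not tested.

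The cells had been transfected with a short hairpin RNA against Sdc1, which encodes the heparan sulfate proteoglycan syndecan-1, or against RFP, a sequence absent from mouse cells that serves as control. Each kind was left unstimulated or given IFNγ at 10 ng/ml for 24 h, which made 4 groups of 3 libraries: shRFP and shSdc1 cells, each without and with IFNγ. All groups were B16 cells in DMEM with 10% fetal bovine serum, and no group lacked a hairpin. The number of hairpins or clones behind each kind is not given, and a change due to the hairpin itself cannot be told apart from one due to the loss of Sdc1. Nothing in the labels says that replicate libraries were grown separately. The p-values then cover only the spread among the 12 samples, and that spread may be technical.

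Lysosomes are acidic organelles in which hydrolases break down protein, lipid and glycan. The V-ATPase acidifies them. Its V0 sector sits in the membrane and carries the protons, its V1 sector hydrolyses ATP on the cytosolic side, and the accessory proteins help to assemble and sort it. Many of the genes are switched on together by Tfeb and Tfe3, which bind the CLEAR motif, a sequence built around CACGTG, when mTORC1 signalling at the lysosome falls. Melanosomes, the pigment granules of melanocytes, are lysosome-related organelles. They receive part of their cargo through endosomal routes shared with lysosomes, and their genes are driven by Mitf, a relative of Tfeb and Tfe3 that also binds E-boxes such as TCATGTG and TCACGTG.

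Promoter sequence is shown for 4 members whose response to knockdown is described below and for Tyr, a pigment gene, so that the E-boxes can be compared. Each stretch runs from 150 bases before to 20 bases after the annotated RefSeq start (GRCm38.p6), read 5′ to 3′ on the gene's strand. Capitals mark TCACGTG, or CACGTGA, its reverse complement, in the members and TCATGTG in Tyr. Atp6v0d1 lies at chr8:105566045-105566214 (minus strand), Atp6v0b at chr4:117887310-117887479 (minus), Lamp1 at chr8:13159011-13159180 (plus), Ctsd at chr7:142387808-142387977 (minus) and Tyr at chr7:87493493-87493662 (minus).
Atp6v0d1: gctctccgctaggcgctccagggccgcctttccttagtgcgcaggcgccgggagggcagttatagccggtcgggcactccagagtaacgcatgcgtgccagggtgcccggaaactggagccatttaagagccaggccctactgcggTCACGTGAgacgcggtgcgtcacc
Atp6v0b: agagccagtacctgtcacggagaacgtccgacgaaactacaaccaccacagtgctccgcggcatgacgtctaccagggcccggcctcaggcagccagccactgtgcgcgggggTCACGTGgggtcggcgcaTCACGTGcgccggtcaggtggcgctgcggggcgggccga
Lamp1: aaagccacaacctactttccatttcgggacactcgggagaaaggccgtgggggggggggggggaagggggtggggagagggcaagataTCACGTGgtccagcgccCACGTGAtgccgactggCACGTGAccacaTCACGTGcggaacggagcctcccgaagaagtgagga
Ctsd: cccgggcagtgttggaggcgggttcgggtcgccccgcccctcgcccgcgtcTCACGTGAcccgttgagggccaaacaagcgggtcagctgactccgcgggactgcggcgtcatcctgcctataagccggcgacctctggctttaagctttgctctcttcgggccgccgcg
Tyr: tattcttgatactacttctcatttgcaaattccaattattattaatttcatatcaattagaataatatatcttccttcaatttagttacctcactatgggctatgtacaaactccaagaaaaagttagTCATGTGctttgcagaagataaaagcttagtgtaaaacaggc

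The motif was common among the members as a whole. RefSeq gave promoter windows of 300 bases, 250 before and 50 after a start, for 38 of the 44 members, 47 windows in all. TCACGTG or CACGTGA was present in 13 of these 47 windows (27.7%), and in 3.77% of all 32851 windows. The core CACGTG, which lies inside it and reads the same on both strands, was present in 31.9% of member windows and in 7.15% of all windows. TCATGTG or its reverse complement CACATGA, the form shown for Tyr, was present in 14.9% of member windows, in 7 of 13 pigment gene windows (53.8%) and in 3.77% of all windows. The 13 members with TCACGTG were Atp6v0b, Atp6v0d1, Atp6v0e, Atp6v1a, Lamp1, Mcoln1, Ctsa, Ctsd, Lgmn, Gaa, Gla, Glb1 and Cln3. A match describes these letters in these windows and was not tested as a binding site.

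The libraries held 14337771 to 21548940 counts. Levels are CPM, counts brought to a common library size with TMM factors, and levels of different genes are compared per kilobase of exon (RPKM). Sdc1 fell from 75.4 ± 1.34 CPM (SD, n = 3) in shRFP to 23.7 ± 1.78 CPM in shSdc1 and from 88.5 ± 12.4 to 25.8 ± 1.03 CPM with IFNγ, with no overlap of knockdown and control libraries. The 7 melanocyte lineage markers looked at were all tested and summed to 11747 to 18170 CPM in every library, so the cells carried the markers of their label. In one library, shSdc1 replicate 3, a single entry without a symbol, ENSMUSG00000119584, took 4.79% of the counts and 0.0842 to 0.195% elsewhere. Leaving it out reversed the sign of no called value of the 77 genes checked. It did end some calls, among them those of Atp6v1h and Ap3b1 for IFNγ in control cells. Members higher in that comparison were then 23 in place of 24.

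Per length, the most abundant members in shRFP were Psap, the precursor of the saposins that help sphingolipid hydrolases, at 236 RPKM, Lamp1, a major glycoprotein of the lysosomal membrane, at 227 RPKM, the tetraspanin Cd63 at 224 RPKM and the cathepsin Ctsz at 222 RPKM. The pump subunit Atp6v1g1 followed at 199.7 RPKM. The subunits of the pump were not at one level, and ranged down to 9.95 RPKM for Atp6v1h. Tfe3 stood at 6.43 RPKM and Tfeb at 2.78 RPKM. The lowest members were Ctsh at 0.747, Ctsf at 0.590, Lyz2 at 0.389, Cln3 at 0.388 and Ctsk at 0.210 RPKM. A pseudogene of Cd63, Cd63-ps, held 10839 counts over the 12 libraries, so the level of Cd63 is uncertain by the share of reads that the counting could place in either copy.

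Knockdown without IFNγ moved the members in both directions, and the counts differed between roles. Of the 43 tested, 15 rose, 7 fell and 21 did not pass, by edgeR's quasi-likelihood test with Benjamini-Hochberg adjusted p under 0.05. Among all genes tested, 28.6% passed (14% higher and 14.6% lower). Here and below, such shares were not matched to the members by level, so a difference in level was not separated from one in response. The median log2 fold change of the members was -0.004, and that of all genes was 0. It ranged from -0.011 to 0.031 over the alternatives, so its sign is not firm, and it was 0.031 without shSdc1 replicate 2. Of the 10 hydrolase and neuronal ceroid lipofuscinosis genes 5 rose and 1 fell, of the 9 cathepsin genes tested 4 rose and 1 fell, and of the 15 pump genes 2 rose and 4 fell. When only the groups compared were fitted, 11 members in place of 7 passed as lower, among them 3 cathepsin genes in place of 1. With a filter of 1 CPM in 3 libraries 3 cathepsin genes fell, and 2 fell in 6 of the fits without 1 library.

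**Figure D1:**
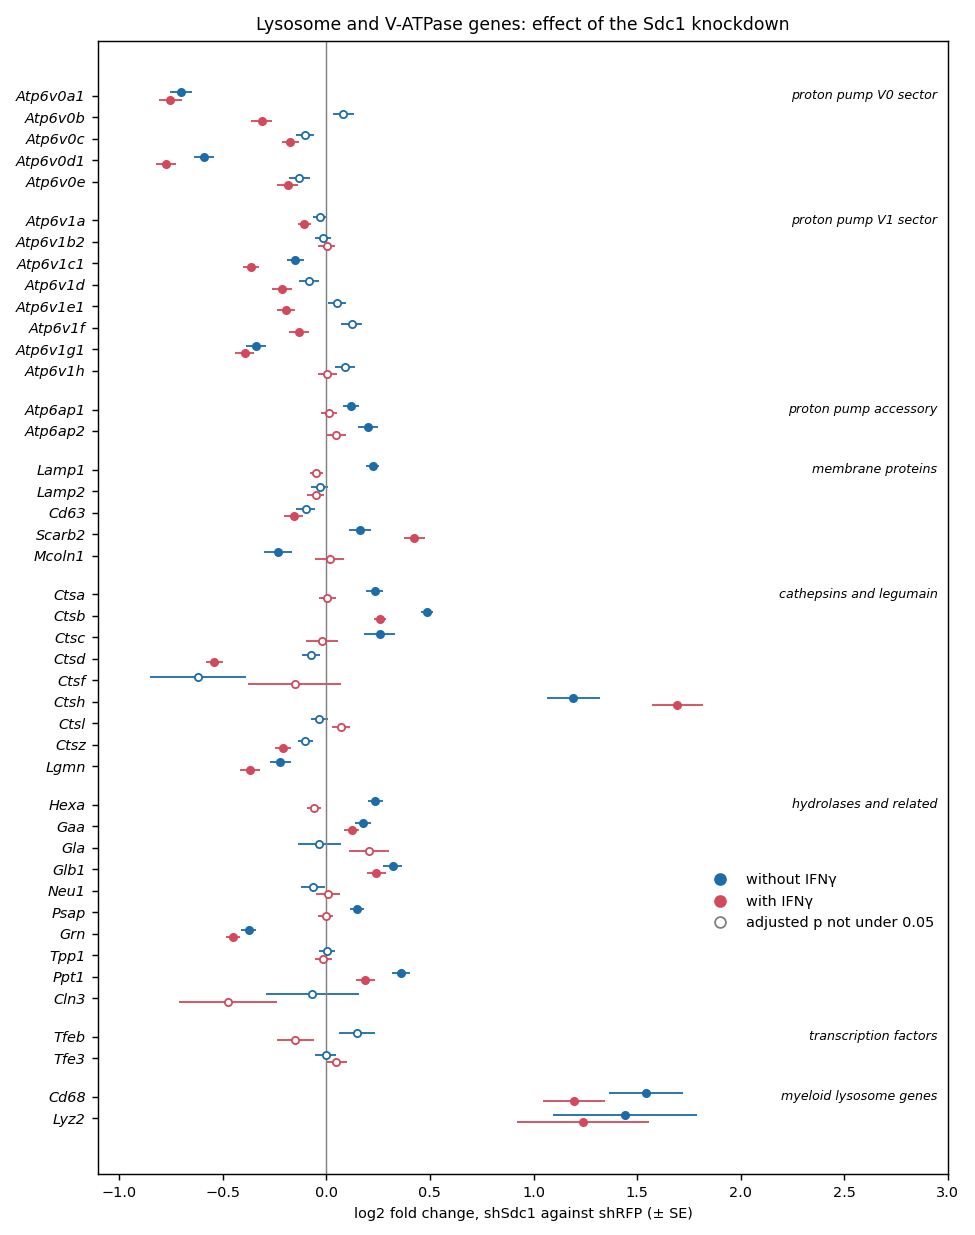
Log2 fold change of the 43 tested members, shSdc1 against shRFP, without IFNγ (blue) and with IFNγ (red), by role; bars are ± SE from the fit over all genes and open circles did not pass at an adjusted p of 0.05. The V0 and V1 genes lie to the left with IFNγ (11 of 13 passed as lower, beside 17.4% of all genes tested). Ctsh, Cd68 and Lyz2 lie furthest to the right.

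Among the pump genes, Atp6v0a1 and Atp6v0d1 of the V0 sector had the lowest log2 fold changes in both settings. Atp6v0a1 encodes subunit a, which forms the proton path. It stood at 220.4, 215 and 211 CPM in the 3 shRFP libraries and at 129, 133 and 136 CPM in the shSdc1 libraries, and with IFNγ at 194, 198 and 178 against 119, 103 and 116 CPM. Every knockdown library was below every control library, and the log2 fold change was -0.70 (SE 0.054, adjusted p = 1.1e-08) without and -0.75 (SE 0.055, adjusted p = 3.6e-09) with IFNγ. In these bulk libraries, fewer cells that express a gene and less RNA of it per cell cannot be told apart. Atp6v0d1 encodes subunit d, which links the membrane ring to the V1 stalk. Its levels were 129.8, 130.4 and 133 CPM in shRFP and 87.7, 86.4 and 87.4 CPM in shSdc1, and with IFNγ 146, 141 and 143 against 89.5, 78.02 and 83.8 CPM. Again the groups did not overlap, and the log2 fold change was -0.59 (SE 0.048, adjusted p = 2.1e-08) without and -0.77 (SE 0.048, adjusted p = 4.0e-10) with IFNγ. Its promoter, shown above, holds TCACGTGA close to the start.

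The other V0 genes had smaller log2 fold changes. Atp6v0b, a proteolipid of the membrane ring, stood at 56.4, 57.9 and 57.4 CPM in shRFP, 59.2, 58.7 and 63.7 in shSdc1, 59.8, 63.5 and 60.1 in shRFP with IFNγ and 50.3, 47.1 and 50.4 in shSdc1 with IFNγ. The last group lay below the other 3, which lay close together. Its log2 fold change with knockdown was 0.081 (SE 0.051, adjusted p = 0.26) without IFNγ and -0.31 (SE 0.051, adjusted p = 1.0e-04) with IFNγ. Atp6v0c, the main proteolipid of the ring, and the small subunit gene Atp6v0e did not pass without IFNγ (log2 fold changes -0.10 and -0.13) and fell by 11.3% and 12.2% with it. All 5 V0 genes were therefore lower in the knockdown with IFNγ, and 2 of 5 without. Of all genes tested, 17.4% were lower with IFNγ and 14.6% without.

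Of the 8 V1 genes 2 fell without IFNγ and 6 fell with it (25% and 75%, beside 14.6% and 17.4% of all genes tested). Atp6v1c1, whose product takes part in the reversible assembly of the pump, stood at 181, 182 and 189.7 CPM in shRFP, 165, 163 and 169 in shSdc1, 178, 185 and 184 in shRFP with IFNγ and 145, 142 and 138 in shSdc1 with IFNγ. The knockdown libraries were below the controls in both settings, and the log2 fold change was -0.15 (SE 0.040, adjusted p = 0.0088) without and -0.36 (SE 0.040, adjusted p = 1.1e-06) with IFNγ. Atp6v1g1, a subunit of the peripheral stalk, fell by 20.98% without and by 23.9% with IFNγ. Atp6v1e1, the other subunit of that stalk, stood at 319, 313 and 320.1 CPM in shRFP, 337, 330.0 and 321 in shSdc1, 359, 407 and 381 in shRFP with IFNγ and 346, 331 and 324 in shSdc1 with IFNγ. It did not pass without IFNγ (0.053) and its log2 fold change was -0.20 (SE 0.044, adjusted p = 0.0019) with it. Atp6v1f, of the central stalk, stood at 114, 115 and 122 CPM in shRFP and 131, 126 and 126 in shSdc1, and at 149, 143 and 132 against 134, 126 and 127 CPM with IFNγ, where the groups overlapped. Its call as lower with IFNγ was near the threshold (log2 fold change -0.13, adjusted p = 0.039), and 7 of 20 alternatives ended it, with adjusted p up to 0.16.

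None of the remaining V1 genes passed without IFNγ, and Atp6v1a and Atp6v1d fell with it. Atp6v1a, the catalytic subunit, went from 392 ± 3.35 to 384 ± 7.59 CPM without IFNγ (log2 fold change -0.030, not passed) and fell by 7.11% with it. Atp6v1d fell by 13.8% with IFNγ. Atp6v1b2 and Atp6v1h passed in neither setting, with log2 fold changes between -0.017 and 0.091. The accessory genes Atp6ap1 and Atp6ap2, whose products bind V0, rose by 8.64% and 14.8% without IFNγ and did not pass with it. The call of Atp6ap1 was lost without shRFP replicate 1 or shSdc1 replicate 1 or 2, and with no filter on low counts (adjusted p up to 0.155). That of Atp6v1a with IFNγ was lost without shSdc1 with IFNγ replicate 2 (0.0678) and when only the groups compared were fitted (0.0575). Summed over its 15 genes, the pump stood at 3243 ± 47.2 CPM (SD, n = 3) in shRFP, 3053 ± 24.0 in shSdc1, 3394 ± 58.4 in shRFP with IFNγ and 2980 ± 57.3 in shSdc1 with IFNγ.

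**Figure D2:**
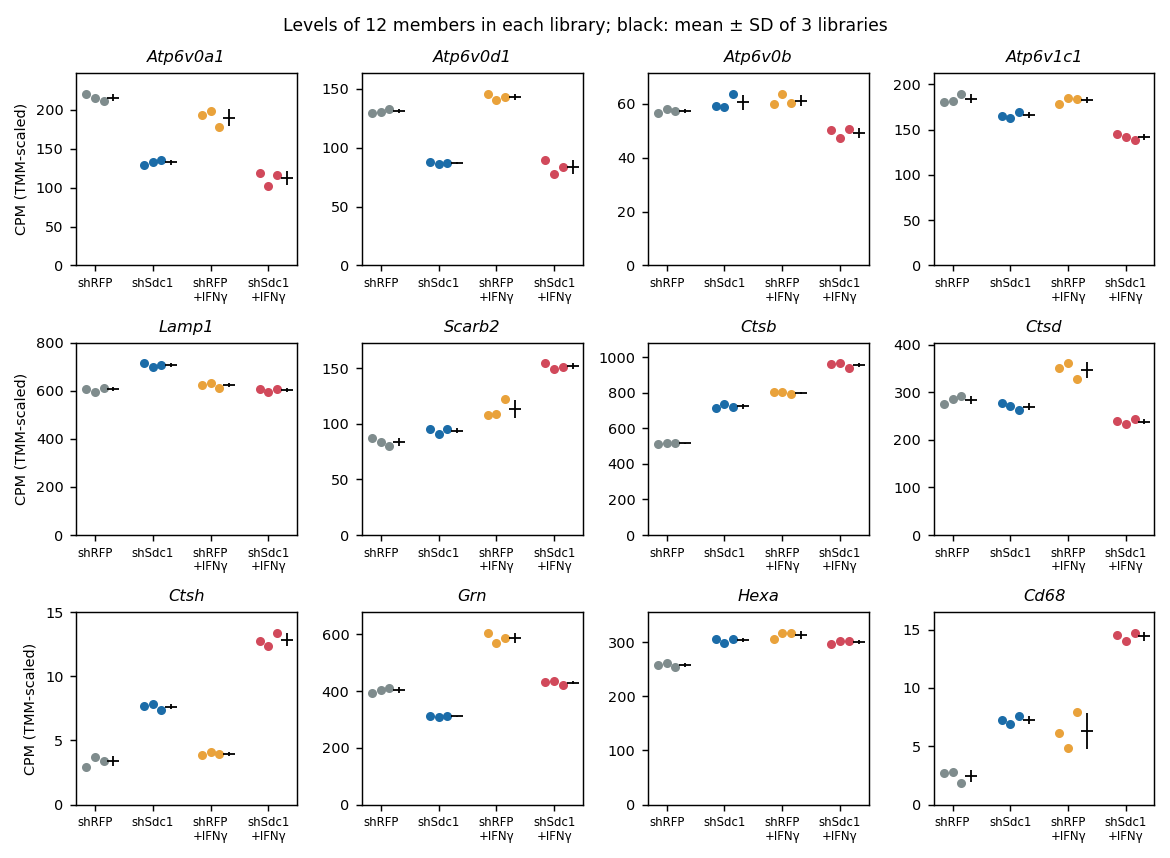
Levels of 12 members in each library, in CPM scaled by TMM on linear axes from 0; points are the 3 libraries of a group and black marks the mean ± SD. Atp6v0a1 and Atp6v0d1 are low in both shSdc1 groups, Ctsh and Cd68 are high in both, and Ctsd is low in shSdc1 with IFNγ (239, 233 and 243 CPM) and high in shRFP with IFNγ.

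Membrane proteins went in different directions. Lamp1 stood at 607, 597 and 614 CPM in shRFP and 715, 699 and 710.1 CPM in shSdc1, and at 626, 632 and 614 against 608, 595 and 608 CPM with IFNγ. The shSdc1 libraries without IFNγ were above all others, with a log2 fold change of 0.22 (SE 0.031, adjusted p = 1.8e-05), and the difference with IFNγ did not pass (-0.048). Scarb2 encodes the receptor that carries glucocerebrosidase to lysosomes. Its levels were 87.5, 83.9 and 79.9 CPM in shRFP and 95.6, 91.2 and 95.1 in shSdc1, and 107, 109 and 122 against 154, 149 and 151 CPM with IFNγ. It rose in both settings, by 0.16 (SE 0.053, adjusted p = 0.025) and 0.42 (SE 0.051, adjusted p = 3.0e-06) on the log2 scale, and the first of these calls was lost without shRFP replicate 2 or 3 or shSdc1 replicate 1 or 3 (adjusted p = 0.062 to 0.108). Mcoln1, the calcium channel TRPML1 of the lysosomal membrane, fell by 14.97% without IFNγ and did not pass with it. That call was lost without shRFP replicate 1 or 2 (adjusted p = 0.0609 and 0.0835). Lamp2 passed in neither setting, and Cd63 was lower with IFNγ (-0.16), which the pseudogene makes uncertain and which was not called without shSdc1 with IFNγ replicate 3 (adjusted p = 0.0709).

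Among the cathepsins, lysosomal proteases, the differences were of both signs. Ctsb stood at 514, 518 and 519 CPM in shRFP and 713, 738 and 721 CPM in shSdc1, and at 802, 805 and 792 against 964, 966 and 942 CPM with IFNγ. Its groups followed each other without overlap, and the log2 fold change with knockdown was 0.49 (SE 0.030, adjusted p = 5.8e-10) without and 0.26 (SE 0.030, adjusted p = 1.8e-06) with IFNγ. Ctsb shares 1545 exon bases with Fdft1 on the opposite strand, and the strand setting of the counting is not given in the sources used here. Fdft1 held 4959 counts in shRFP and 3704 in shSdc1, and 6339 and 5716 with IFNγ, where Ctsb held 27519 and 35343, and 36293 and 48458. Ctsd, an aspartic protease, stood at 275, 285 and 293 CPM in shRFP and 277, 270.5 and 263 CPM in shSdc1, which overlap, and at 350.3, 361 and 329 against 239, 233 and 243 CPM with IFNγ, which do not. Its log2 fold change was -0.074 (SE 0.042, adjusted p = 0.21) without and -0.54 (SE 0.042, adjusted p = 1.0e-08) with IFNγ. Ctsd shares 1274 exon bases with Gm49369 on the same strand, which held 0 counts in every group. How reads in the shared bases were counted is not given.

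Ctsh, an aminopeptidase, was low in abundance and had the largest rise among the cathepsins tested. Its levels were 2.96, 3.74 and 3.39 CPM in shRFP and 7.72, 7.82 and 7.39 CPM in shSdc1, and 3.84, 4.11 and 3.94 against 12.8, 12.4 and 13.4 CPM with IFNγ, on 49 to 238 counts per library. The knockdown libraries were 2.29-fold higher without and 3.24-fold higher with IFNγ, with log2 fold changes of 1.19 (SE 0.128, adjusted p = 8.1e-07) and 1.69 (SE 0.122, adjusted p = 3.1e-09), and no library overlapped. Legumain, Lgmn, an asparaginyl endopeptidase that processes cathepsins, went the other way. Its levels were 87.7, 93.8 and 91.1 CPM in shRFP and 78.6, 80.3 and 74.7 in shSdc1, and 153, 161 and 143 against 118, 120.0 and 116 CPM with IFNγ, with log2 fold changes of -0.22 (SE 0.051, adjusted p = 0.0026) and -0.37 (SE 0.049, adjusted p = 9.3e-06).

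The protective protein gene Ctsa stood at 216, 232 and 227 CPM in shRFP, 269.7, 260.3 and 263 in shSdc1, 279.9, 269 and 274 in shRFP with IFNγ and 288, 264 and 273 in shSdc1 with IFNγ. It was higher in the knockdown without IFNγ, by 0.23 (SE 0.042, adjusted p = 3.3e-04) on the log2 scale, and did not pass with it (0.005). Ctsa shares 1485 exon bases with Pltp, on the opposite strand, which held 772 to 2010 counts a group where Ctsa held 11931 to 13931. Ctsc rose by 19.5% without IFNγ, a call lost without shRFP replicate 1 or 3 or shSdc1 replicate 2 (adjusted p up to 0.0844), and Ctsz fell by 13.5% with it. Ctsl, the main endopeptidase beside Ctsb, passed in neither setting (-0.034 and 0.070). Ctsl shares 1742 exon bases with Gm47123 on the opposite strand and 395 with Gm49230 on the same strand, both at 0 counts. Ctsf went from 2.97 ± 0.227 to 1.93 ± 0.405 CPM without IFNγ. Its log2 fold change of -0.62 (SE 0.232, adjusted p = 0.052) did not pass.

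Most hydrolase and neuronal ceroid lipofuscinosis genes that passed were higher in the knockdown, and Grn was the exception. Hexa, the alpha chain of beta-hexosaminidase, stood at 258, 262 and 254 CPM in shRFP, 306, 299 and 306 in shSdc1, 306, 318 and 318 in shRFP with IFNγ and 297, 303 and 302 in shSdc1 with IFNγ. The shRFP libraries were below the other 3 groups, and the knockdown difference was 0.24 (SE 0.036, adjusted p = 4.7e-05) without IFNγ and -0.060, not passed, with it. Glb1, beta-galactosidase, rose by 24.9% and 18.3%, and Gaa, acid alpha-glucosidase, by 13.02% and 8.80%, without and with IFNγ. Glb1 shares 165 exon bases with Tmppe on the same strand, which held 592 to 705 counts a group against 4130 to 5632. The call of Gaa with IFNγ was lost without replicate 2 of shRFP or shSdc1 with IFNγ, with no filter and when only the groups compared were fitted (adjusted p up to 0.0917). Psap rose by 10.8% without IFNγ. Ppt1, palmitoyl-protein thioesterase, was higher by 28.2% and 13.98%. It shares 387 exon bases with Cap1 on the opposite strand, which held 9808 to 11868 counts a group where Ppt1 held 3247 to 4130.

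Grn encodes progranulin, which is cleaved to granulins in lysosomes. Its levels were 392, 405 and 412 CPM in shRFP and 311, 309 and 312 CPM in shSdc1, and 606, 569 and 589 against 432, 434 and 423 CPM with IFNγ. Every knockdown library was below its controls, and the log2 fold change was -0.38 (SE 0.035, adjusted p = 1.5e-07) without and -0.45 (SE 0.035, adjusted p = 9.4e-09) with IFNγ. Gla, alpha-galactosidase A, stood at 17.1, 13.9 and 17.1 CPM in shRFP, 15.9, 14.3 and 17.04 in shSdc1, 20.8, 25.2 and 26.98 in shRFP with IFNγ and 27.3, 28.7 and 28.1 in shSdc1 with IFNγ, and its knockdown difference passed in neither setting. Neu1, Tpp1 and Cln3 passed in neither setting either. Cln3 was read from 25 to 47 counts per library and shares 532 exon bases with Apobr on the opposite strand, so its log2 fold change of -0.47 with IFNγ (adjusted p = 0.13) is imprecise.

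Neither transcription factor of the program passed in any of the 5 comparisons. Tfeb stood at 16.5, 15.1 and 15.8 CPM in shRFP, 17.98, 16.1 and 18.4 in shSdc1, 17.7, 17.6 and 14.7 in shRFP with IFNγ and 15.2, 15.4 and 14.5 in shSdc1 with IFNγ. Its log2 fold change with knockdown was 0.15 (SE 0.089, adjusted p = 0.24) without and -0.15 (SE 0.091, adjusted p = 0.22) with IFNγ. Tfe3 stood at 59.2, 58.2 and 61.2 CPM in shRFP and 59.7, 58.7 and 59.6 in shSdc1, and at 58.1, 53.3 and 61.6 against 58.9, 60.2 and 59.8 CPM with IFNγ, with log2 fold changes of -0.004 (SE 0.052, adjusted p = 0.97) and 0.049 (SE 0.053, adjusted p = 0.51). The groups of each gene overlapped in the knockdown comparisons. With IFNγ in knockdown cells, Tfeb had a log2 fold change of -0.22 (SE 0.089, adjusted p = 0.075) without overlap of the libraries. It passed with upper-quartile scaling (adjusted p = 0.0335) and without shSdc1 replicate 2 (0.0472). Its interaction, -0.30 (SE 0.127, adjusted p = 0.15), passed without shRFP with IFNγ replicate 3 (0.0461). Transcript level says nothing of where these factors lie in the cell, which is how they are mainly regulated.

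Cd68 and Lyz2, best known from macrophages, rose most by fold beside Ctsh. Cd68, a LAMP family membrane protein, stood at 2.69, 2.79 and 1.87 CPM in shRFP and 7.23, 6.94 and 7.57 CPM in shSdc1, and at 6.15, 4.86 and 7.96 against 14.5, 13.998 and 14.7 CPM with IFNγ, on 27 to 271 counts per library. The log2 fold change was 1.54 (SE 0.177, adjusted p = 1.9e-06) without and 1.20 (SE 0.148, adjusted p = 3.8e-06) with IFNγ, and no knockdown library overlapped its controls. Lyz2, lysozyme, stood at 0.319, 0.593 and 0.622 CPM in shRFP and 1.28, 1.56 and 1.22 CPM in shSdc1, and at 0.926, 0.872 and 0.423 against 1.99, 1.77 and 1.53 CPM with IFNγ, on 6 to 37 counts per library. Its log2 fold change was 1.44 (SE 0.349, adjusted p = 0.0042) and 1.24 (SE 0.319, adjusted p = 0.0051). Beside these, 17 markers of macrophages and other leukocytes were at or near 0. None was tested, 8 of them, among them Adgre1, Tyrobp and C1qa, had 0 counts in all 12 libraries, 8 had 1 to 5 counts in all, and Fcer1g held 106 of their 123 counts. Their summed level ranged from 0.356 to 1.24 CPM in shRFP, 0.313 to 0.855 in shSdc1, 0.397 to 1.13 in shRFP with IFNγ and 0.354 to 0.666 in shSdc1 with IFNγ.

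With IFNγ in both arms, the knockdown left 8 members higher, 16 lower and 19 not passed, where 18.9% of all genes tested were higher and 17.4% lower (36.3% in all). The median of the members was -0.048 and that of all genes 0.017. The pump accounted for 11 of the 16 lower members, none of its 15 genes was higher, and its median was -0.19. Over the alternatives, 9 to 11 pump genes were lower and 0 were higher. Set against the comparison without IFNγ, which used other libraries, 8 members were higher in both (18.6%, beside 8.40% of all genes tested) and 6 lower in both (14%, beside 8.51%). A further 10 passed as lower with IFNγ and not without (23.3%, beside 8.40%), and 7 as higher without and not with (16.3%, beside 5.07%). Mcoln1 passed as lower without IFNγ and not with it, 11 passed in neither, and none passed in opposite directions.

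Whether the knockdown effect itself differed with IFNγ was tested by the interaction, which 10 of 43 members passed, 9 of them downward, where 9.73% of all genes tested passed (4.58% higher, 5.15% lower). The median interaction of the members was -0.11, and that of all genes was 0.023. The 9 were Atp6v0b, Atp6v1c1, Atp6v1e1, Atp6v1f, Lamp1, Ctsa, Ctsb, Ctsd and Hexa. Ctsd had the lowest value, -0.47 (SE 0.060, adjusted p = 1.2e-04), followed by Atp6v0b, at -0.39 (SE 0.072, adjusted p = 0.0024). Of the 10 members lower with IFNγ and not without, 4 passed this test, and of the 7 higher without and not with, 3 did. For the remaining members of these classes a difference between the settings was not shown. Leaving out 1 library at a time gave 5 to 11 lower interactions, with 5 without shSdc1 replicate 1. Of the 4 pump genes among them, 2 passed without shRFP replicate 1 or 2 or shSdc1 with IFNγ replicate 2 or 3, and 1 without shSdc1 replicate 1. Scarb2 was the single upward one, at 0.26 (SE 0.073, adjusted p = 0.031), and 10 of the 12 fits without a library ended that call, with adjusted p up to 0.096.

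The same interaction can be read from the IFNγ response in each kind of cell. In control cells IFNγ raised 24 members and lowered 3, and 16 did not pass, where 17.2% of all genes tested were higher and 14.4% lower (31.6% in all). In knockdown cells it raised 16 and lowered 8, and 19 did not pass, where 17.5% of genes were higher and 13% lower (30.5% in all). The median log2 fold change of the members was 0.18 in control and 0.040 in knockdown cells, beside -0.006 and 0.004 for all genes. The second of these is not firm in sign, since it was -0.003 with upper-quartile scaling. That scaling turned the split of all genes from 2422 higher and 2024 lower to 1759 and 2811 in control cells, and from 2469 and 1826 to 2047 and 2495 in knockdown cells. Of the members it left 20 higher and 4 lower in control cells and 12 higher and 10 lower in knockdown cells. The 3 lower members in control cells were 1 without shRFP replicate 1 or shRFP with IFNγ replicate 3.

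**Figure D3:**
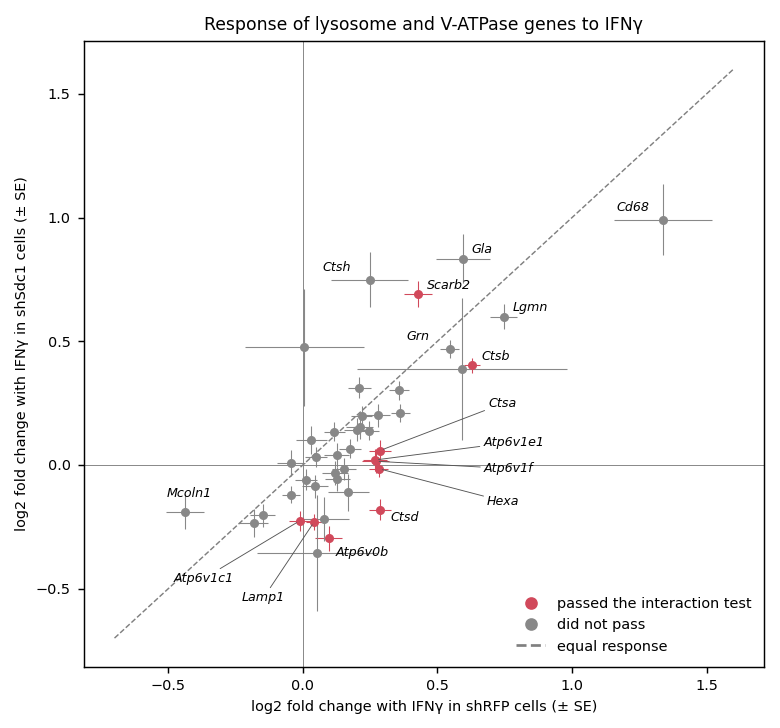
Log2 fold change with IFNγ in shSdc1 cells (vertical) against shRFP cells (horizontal), 1 point per tested member, bars ± SE; the dashed line marks equal responses and red marks the 10 members that passed the interaction. All red points except Scarb2 lie below the line; both axes use different libraries.

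Several members rose with IFNγ in both kinds of cell. Cd68 rose 2.53-fold in control and 1.99-fold in knockdown cells. Lgmn rose by 0.75 (SE 0.050) and 0.60 (SE 0.050) on the log2 scale, Ctsb by 0.63 (SE 0.030) and 0.40 (SE 0.030), Gla by 0.59 (SE 0.100) and 0.83 (SE 0.099), Grn by 0.55 (SE 0.035) and 0.47 (SE 0.035) and Scarb2 by 0.43 (SE 0.052) and 0.69 (SE 0.052). Grn and Lgmn were thus raised by IFNγ and lower in the knockdown, while Ctsb, Scarb2 and Cd68 were higher with each. Ctsh rose in knockdown cells, by 0.75 (SE 0.110, adjusted p = 3.4e-05) on the log2 scale, and did not pass in control cells, at 0.25 (SE 0.142, adjusted p = 0.20). The difference between them, 0.50 (SE 0.180, adjusted p = 0.083), did not pass. In all 15 members were higher in both kinds of cell (34.9%, beside 10% of all genes tested). Mcoln1, Atp6v0a1 and Atp6v1g1 were lower in both (6.98%, beside 5.21%), with log2 fold changes from -0.44 for Mcoln1 in control cells to -0.15 for Atp6v1g1 in control cells. In knockdown cells Mcoln1 was near the threshold (adjusted p = 0.049), and 8 of 20 alternatives ended its call, among them each fit without a shSdc1 library or without shSdc1 with IFNγ replicate 1 or 2 (adjusted p up to 0.206). In control cells the call of Atp6v1g1 was lost without shRFP replicate 1, without shRFP with IFNγ replicate 1 or 3, and when only the groups compared were fitted (adjusted p up to 0.111). That of Atp6v0a1 was lost without shRFP replicate 1 or shRFP with IFNγ replicate 3 (adjusted p up to 0.0749).

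Ctsd was the member that passed in opposite directions. It rose by 21.9% with IFNγ in control cells and fell by 11.8% in knockdown cells. The log2 fold changes were 0.29 (SE 0.042, adjusted p = 3.8e-05) and -0.18 (SE 0.042, adjusted p = 0.0030). Among all genes 78 were higher in control and lower in knockdown cells and 43 the reverse. Hexa, Ctsa, Atp6v1e1 and Atp6v1f rose by 21.6%, 21.9%, 20.4% and 20.6% in control cells and had log2 fold changes of -0.015 to 0.058 in knockdown cells, which did not pass. Lamp1, Atp6v0b and Atp6v1c1 did not pass in control cells and fell by 14.8%, 18.6% and 14.5% in knockdown cells. These 8 genes all passed the interaction. Of all genes tested IFNγ raised 17.2% and lowered 14.4% in control cells, and raised 17.5% and lowered 13% in knockdown cells. Of the 15 pump genes 7 rose and 2 fell in control cells, and 2 rose and 5 fell in knockdown cells. With upper-quartile scaling the counts were 4 and 3, and 0 and 6. Without shRFP replicate 2 or shRFP with IFNγ replicate 3, 4 pump genes in place of 7 rose in control cells. The 2 that fell there were 0 without shRFP replicate 1 or shRFP with IFNγ replicate 3, and 1 without shRFP with IFNγ replicate 1. The 2 that rose in knockdown cells were 0 without shSdc1 replicate 2 or shSdc1 with IFNγ replicate 2, and 1 without shSdc1 replicate 3 or shSdc1 with IFNγ replicate 1.

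A greater share of the pigment genes fell, and their median was lower than that of the members. Of 16 pigment genes 13 fell and 2 rose without IFNγ, and 13 fell and 2 rose with it, with medians of -0.40 and -0.52, beside -0.004 and -0.048 for the members. In each setting 81.2% fell and 12.5% rose. Of all genes tested 14.6% fell and 14% rose without IFNγ, and 17.4% fell and 18.9% rose with it. Pmel, which forms the fibrils on which melanin is laid down, stood at 4383, 4351 and 4447 CPM in shRFP and 1798, 1849 and 1745 CPM in shSdc1, and at 4365, 4497 and 4037 against 1543, 1397 and 1632 CPM with IFNγ. The groups were far apart, with log2 fold changes of -1.29 (SE 0.048, adjusted p = 8.2e-13) and -1.50 (SE 0.049, adjusted p = 9.2e-14). Among the members only Ctsh, Cd68 and Lyz2 changed by 2-fold or more, all upward, whereas 5 pigment genes without IFNγ and 6 with it fell by that much. Summed over the list, pigment genes stood at 26157 ± 175 CPM (SD, n = 3) in shRFP and 20650 ± 258 in shSdc1, and at 28023 ± 1179 and 20559 ± 827 with IFNγ. The 44 members summed to 8943 ± 90.8 and 9095 ± 46.9 CPM, and to 10396 ± 67.5 and 9768 ± 157 with IFNγ.

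Within the pigment list, Oca2, Trpm1 and Pmel had the lowest log2 fold changes. Oca2, a transport protein of the melanosome membrane, fell by 1.97 (SE 0.197) and 1.99 (SE 0.197) on the log2 scale, Trpm1 fell by 1.48 (SE 0.054) and 1.66 (SE 0.056), and Tspan10 fell by 1.17 (SE 0.054) and 1.44 (SE 0.055), without and with IFNγ. Mlana fell by 0.73 (SE 0.045) and 0.97 (SE 0.046). The enzymes of melanin synthesis fell less: Tyr fell by 0.45 (SE 0.043) and 0.43 (SE 0.044), Tyrp1 fell by 0.14 (SE 0.044) and 0.22 (SE 0.044), and Dct fell by 0.10 (SE 0.034) and 0.17 (SE 0.034). Without IFNγ the call of Tyrp1 was lost without shRFP replicate 1 or 2 or shSdc1 replicate 1 or 3 (adjusted p up to 0.0937). That of Dct was lost without shRFP replicate 2 or shSdc1 replicate 2 or 3 and with the replicate block (adjusted p up to 0.0989). Gpnmb, a relative of Pmel found in melanosomes and lysosomes, fell by 0.19 (SE 0.031) and 0.34 (SE 0.031). The 2 that rose were Tpcn2 (0.34 and 0.59), a cation channel found in both melanosomes and lysosomes, and Atp7a (0.29 and 0.39), the copper pump that supplies tyrosinase. With IFNγ, 4 pigment genes rose and 4 fell in control cells, and 4 rose and 9 fell in knockdown cells. These shares were 25% and 25%, and 25% and 56.2%. For all genes tested they were 17.2% and 14.4%, and 17.5% and 13%. The interaction passed for 5 pigment genes, all downward (31.2%, beside 9.73% of all genes tested). Only 2 passed with the replicate block or without shRFP replicate 1 or 2, shSdc1 replicate 1 or 2 or shSdc1 with IFNγ replicate 2.

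The medians of the melanosome trafficking genes lay between those of the pigment genes and the members. Of 20 tested, 11 fell and 1 rose without IFNγ, and 10 fell and none rose with it, with medians of -0.22 and -0.25. The share that fell was 55% and 50%, beside 14.6% and 17.4% of all genes tested. With upper-quartile scaling, or a filter of 1 CPM in 3 libraries, 1 gene passed as higher with IFNγ, and without shRFP replicate 1 none did without IFNγ. Rab27a, the GTPase that holds melanosomes at the cell edge, fell by 1.16 (SE 0.057) and 1.25 (SE 0.058) on the log2 scale, Bloc1s6 fell by 0.95 (SE 0.084) and 0.71 (SE 0.079), Mlph fell by 0.48 (SE 0.053) and 0.80 (SE 0.054) and Myo5a fell by 0.53 (SE 0.048) and 0.39 (SE 0.048). Bloc1s6 belongs to the BLOC-1 complex that sorts cargo from endosomes to melanosomes, and Mlph and Myo5a tether Rab27a to actin. Ap3b1 and Ap3d1, subunits of the AP-3 adaptor that serves lysosomes as well, did not pass in either setting (log2 fold changes of -0.028 to -0.010).

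**Figure D4:**
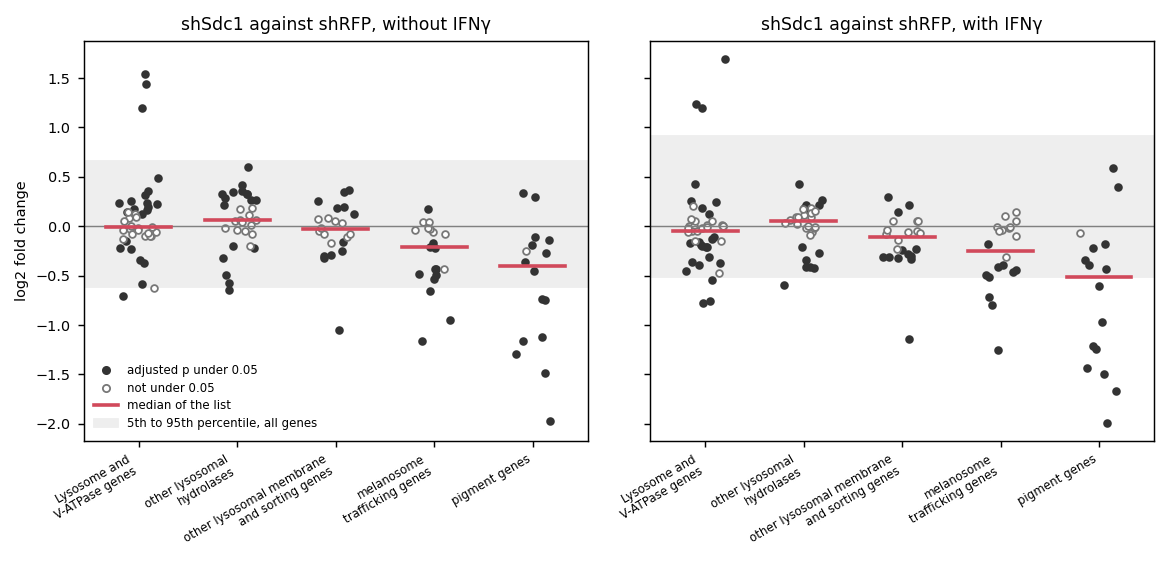
Log2 fold change of each tested gene, shSdc1 against shRFP, without IFNγ (left) and with IFNγ (right), for the members and 4 other lists; filled points passed at an adjusted p of 0.05, red lines are list medians and the grey band spans the 5th to 95th percentile of all genes tested (-0.61 to 0.66 and -0.52 to 0.92). The lowest pigment genes reach far below the band, while the median of their list lies within it without IFNγ (-0.40) and at its lower edge with IFNγ (-0.52). Most lysosomal genes lie within the band, as most genes do by its definition.

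Other lysosomal genes, taken from lists outside the 44, also moved in both directions. Of 30 other hydrolases tested 11 rose and 6 fell without IFNγ, and 6 rose and 7 fell with it, with medians of 0.063 and 0.050. Without IFNγ that was 36.7% higher and 20% lower, beside 14% and 14.6% of all genes tested. With IFNγ it was 20% and 23.3%, beside 18.9% and 17.4%. The medians of all genes were 0 and 0.017. Arsb, arylsulfatase B, rose by 0.60 (SE 0.043) and 0.42 (SE 0.043) on the log2 scale. Ids, iduronate sulfatase, fell by 0.64 (SE 0.066) and 0.41 (SE 0.069), and Smpd1, acid sphingomyelinase, fell by 0.57 (SE 0.075) and 0.60 (SE 0.072). In control cells IFNγ raised 17 of the 30 and lowered 1, led by the cathepsin Ctso at 1.71 (SE 0.109), with 1.57 (SE 0.104) in knockdown cells. In knockdown cells 12 rose and 6 fell. The shares higher and lower were 56.7% and 3.33% in control cells, and 40% and 20% in knockdown cells. Among all genes tested they were 17.2% and 14.4%, and 17.5% and 13%.

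Of 22 other lysosomal membrane and sorting genes 6 rose and 6 fell without IFNγ, and 3 rose and 9 fell with it, with medians of -0.030 and -0.11. Without IFNγ 27.3% rose and 27.3% fell, beside 14% and 14.6% of all genes tested. With IFNγ 13.6% rose and 40.9% fell, beside 18.9% and 17.4%. Lamtor3, a scaffold of the Ragulator complex that holds mTORC1 at lysosomes, had log2 fold changes of -1.05 (SE 0.059) and -1.14 (SE 0.060), and Lamtor1 and Lamtor5 of the same complex also fell, by 10.2% and 15.8% without IFNγ. Those calls were lost without shSdc1 replicate 1 or 2 for Lamtor1 (adjusted p up to 0.0635) and without shSdc1 replicate 3 for Lamtor5 (0.0566). Igf2r, a receptor that delivers hydrolases tagged with mannose 6-phosphate, rose by 0.37 (SE 0.037) and 0.29 (SE 0.037). Laptm4a rose with IFNγ, by 0.73 (SE 0.041) in control and 0.68 (SE 0.041) in knockdown cells. Of the 10 other V-ATPase subunit genes 5 were tested, and 2 of them, Atp6v0a2 and Atp6v0e2, fell in both settings. Of all genes tested 8.51% did so. Tcirg1, a further form of subunit a, was higher without IFNγ, by 0.12 (SE 0.041, adjusted p = 0.045) on the log2 scale, a call that 10 of 20 alternatives ended, among them the fits without shRFP replicate 1 or 2 or shSdc1 replicate 1 or 2 (adjusted p up to 0.241). It did not pass with IFNγ (-0.006). Atp6v0a2 encodes another form of subunit a. It fell by 0.23 (SE 0.039) and 0.37 (SE 0.039) with knockdown and rose by 0.72 (SE 0.039) and 0.58 (SE 0.039) with IFNγ, while Atp6v0a1 fell with each. In response to IFNγ, Tcirg1 rose by 0.48 (SE 0.041) and 0.36 (SE 0.041).

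Among 17 tested regulators of mTORC1, autophagy and the Tfeb family, 5 fell and 1 rose without IFNγ. With it 6 fell and 1 rose. In either direction 35.3% and 41.2% passed, beside 28.6% and 36.3% of all genes tested. The lower share was 29.4% and 35.3%, beside 14.6% and 17.4%, and the higher share 5.88% in each, beside 14% and 18.9%. Mitf fell by 0.61 (SE 0.055, adjusted p = 9.3e-08) without and 0.63 (SE 0.055, adjusted p = 4.7e-08) with IFNγ, where Tfeb and Tfe3 did not pass. Mitf stood at 384, 387 and 354 CPM in shRFP and 238, 257 and 241 in shSdc1, and at 360.2, 344 and 378 against 218, 227 and 254 CPM with IFNγ, with no overlap. Rragd, a Rag GTPase that is itself a target of this family of factors, fell by 0.76 (SE 0.064) and 0.83 (SE 0.065). Flcn, which acts with the Rag GTPases, and Rragc, another Rag GTPase, fell by 10.8% and 11.3% without and 23.2% and 24.1% with IFNγ. The regulators named here that passed all fell, while log2 fold changes in the list ran up to 0.498 without and 0.501 with IFNγ. The call of Flcn without IFNγ was lost without shRFP replicate 2 or shSdc1 replicate 3 (adjusted p up to 0.0569). The remaining member of the family, Tfec, was not tested because of low counts.

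Members with and without the promoter motif moved in both directions. Of all genes tested, 14% rose and 14.6% fell with knockdown without IFNγ, and 18.9% rose and 17.4% fell with it. Of the 13 members with TCACGTG in a window, 4 rose and 3 fell with knockdown without IFNγ, and 2 rose and 6 fell with it. Of the 24 tested members with a window and without the motif, 9 rose and 2 fell, and 4 rose and 8 fell. The medians were -0.033 and 0.028 without IFNγ and -0.11 and -0.037 with it. Atp6v0d1 and Glb1, both with the motif, fell by 33.5% and rose by 24.9% in the same comparison. The interaction passed downward for 5.15% and upward for 4.58% of all genes tested. Of the 13 members with the motif 4 passed the interaction downward, and of the 24 without it 3 did and 1 passed upward. The 4 were Atp6v0b, Lamp1, Ctsa and Ctsd, and their promoters, except that of Ctsa, are shown above. Beside these 4 and the 3 with a window and no motif, the rest of the 9 that passed downward had no promoter window. Whether the motif goes with the interaction was not tested.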

How the data were processed

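RNA-seq was done on 12 libraries of B16 cells. The deposited table holds whole-number raw counts per gene, which the authors made with tools that the submitters' processing notes name as HISAT2 2.0.5, HTSeq and Trimmomatic, with the build GRCm39. No source used here gives their roles, the annotation or the strand setting. Symbols, exon lengths and overlaps came from GENCODE M21 (GRCm38) and matched 52083 of 56093 entries. Promoters came from RefSeq (GRCm38.p6), and all coordinates printed are those of that build and not of the counts.

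Counts were scaled by TMM, kept by filterByExpr (minimum count 10, total 15) and fitted over all 12 libraries with 1 coefficient per group in edgeR 4.0.16 (R 4.3.3, limma 3.58.1), with 8 residual degrees of freedom. Tests were quasi-likelihood, two-sided and Benjamini-Hochberg adjusted over 14089 genes at 0.05. SE is the log2 fold change over the square root of F. The steps were tested on simulated data. Replicates differed by more than sampling noise, so none was counted as a duplicate.

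The members, and the 6 lists set beside them, were chosen with earlier results of these data known, so their counts are descriptions. Library values are printed for Tfeb, Tfe3, Cd68, Lyz2, members past an absolute log2 fold change of 0.5, and members that passed the interaction, 20 in all. From other lists, up to 4 genes per comparison are named by size of change, and Pmel, Tyr, Tyrp1, Dct, Mlana, Gpnmb, Mitf and Tfec are always given. Ap3b1, Ap3d1, Lamtor1, Lamtor5, Flcn, Rragc, Tpcn2, Atp7a and Tcirg1 were named after their values were seen. Alternatives were DESeq2 1.42.0 size factors and Wald test, upper-quartile scaling, no filter, and a filter of 1 CPM in 3 libraries. Others were a fit of only the 2 groups compared (none for the interaction), a replicate block, leaving out ENSMUSG00000119584, and leaving out each library. Counts per role group, and single-gene values for members and other named genes outside the rule, were added to these after seeing the data. Figures used Python 3.11.15 with pandas 2.3.3 and matplotlib 3.10.9.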

Additional observations from a re-analysis of the deposited data

Results flagged for a closer look

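For 10 members the knockdown effect with IFNγ differed from that without it by the interaction test in edgeR, which equals the difference between the IFNγ responses of knockdown and control cells. The log2 differences were -0.39 for Atp6v0b, -0.21 for Atp6v1c1, -0.25 for Atp6v1e1 and -0.26 for Atp6v1f among the pump genes. They were -0.27 for Lamp1 and 0.26 for Scarb2 among the membrane proteins, -0.23 for Ctsa, -0.23 for Ctsb and -0.47 for Ctsd among the cathepsins, and -0.30 for Hexa. Beside them, 9.73% of all genes tested passed. The calls of Atp6v0b, Lamp1, Ctsb, Ctsd and Hexa held under every alternative run. Those of Scarb2, Atp6v1f, Atp6v1c1, Ctsa and Atp6v1e1 were lost in 10, 6, 5, 3 and 1 alternatives, each a fit without 1 library.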

How the results depend on the processing

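For the 77 genes with alternatives of their own, no called log2 fold change reversed in 7622 values. The count of members lower in the knockdown without IFNγ was 11 when only the compared groups were fitted, in place of 7. Leaving out 1 library at a time gave 13 to 16 members higher and 7 to 9 lower in the knockdown without IFNγ, and 7 to 9 higher and 14 to 16 lower with it. With IFNγ it gave 20 to 24 higher and 1 to 3 lower in control cells, and 12 to 16 higher and 6 to 8 lower in knockdown cells. For the interaction it gave 0 to 1 higher and 5 to 11 lower. Among the 7622 single-gene values 251 were lost as calls and 52 were gained. The other 7319 were either calls kept or values called in neither fit. The cause of the changes was not tested. The replicate numbers did not pair the samples: deviations of libraries with the same number correlated at -0.068 to 0.033. With the replicate number as a block the members higher and lower were 15 and 7 without IFNγ, 8 and 15 with it, 21 and 3 for IFNγ in control cells, 16 and 7 in knockdown cells, and 1 and 9 for the interaction. That block ended the calls of Atp6v1f with IFNγ (adjusted p = 0.0521), of Dct (0.0585), Ctso (0.0557) and Tcirg1 (0.0740) without it, of Atp6v0d1, Atp6v1b2, Atp6v1h, Rab27a and Ap3b1 for IFNγ in control cells (0.0522 to 0.0699) and of Mcoln1 for IFNγ in knockdown cells (0.0679). It also ended the interactions of Mlana, Gpnmb, Tspan10 and Flcn (0.0542 to 0.0822). It also left 4 in place of 7 pump genes higher with IFNγ in control cells. Depth limits Ctsk, Lyz2, Ctsf and Cln3, which held 43 to 522 counts over all libraries.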
